A study of Mus musculus with 12 samples.

Results

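The Wnt pathway was followed in whole mouse lung after paraquat, through the 55 listed genes that encode its secreted ligands, receptors, inhibitors and best-known responders. Members were taken by gene symbol: every listed Wnt, Fzd, Sfrp, Dkk, Rspo and Lgr4 to Lgr6 gene, together with Axin2, Lef1, Tcf7, Wif1, Nkd1, Nkd2, Notum, Lrp5, Lrp6, Znrf3 and Rnf43. They were 55 of the 20774 genes listed in any library. They comprised 19 Wnt ligands, 4 R-spondins, 12 receptors and co-receptors, 3 Lgr receptors, 10 secreted inhibitors, 5 intracellular or membrane feedback inhibitors and the 2 transcription factors Lef1 and Tcf7.

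RNA sequencing had been run on homogenized lung of wild-type C57BL/6J mice, all with an age label of 8 weeks. Treated mice had been given paraquat (PQ), a herbicide that injures the lung, once into the trachea in saline. Control mice had received saline. Lungs were labelled 1 week (1w) or 4 weeks (4w), which gave 4 groups of 3 libraries: control 1w, PQ 1w, control 4w and PQ 4w. The sources used here give neither the dose of paraquat nor whether the 3 libraries of a group came from 3 separate mice, so p-values measure the spread between these libraries, which may be technical in part. In homogenized tissue, fewer cells of a type and less RNA per cell cannot be told apart.

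Wnt proteins are secreted lipid-modified ligands that bind Frizzled receptors, and with the co-receptors Lrp5 and Lrp6 they stabilize beta-catenin, which enters the nucleus and acts with TCF/LEF factors. R-spondins acting through Lgr receptors keep the ubiquitin ligases Znrf3 and Rnf43 from removing Frizzled receptors, while Sfrp, Dkk, Wif1 and Notum proteins restrain the signal outside the cell. Axin2, Nkd1, Lef1 and Notum are themselves transcribed in response to beta-catenin in many tissues and feed back on the pathway. In lung, Wnt signals are known to sustain alveolar type 2 cells and to pass between epithelium and fibroblasts, and Wnt5a is a classical ligand of the branch that does not use beta-catenin.

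The libraries held between 17220978 and 18559809 expected counts. Levels are given as counts scaled to depth (CPM, per 1e6), scaled by library total and by a factor of between 0.974 and 1.06 per library. PQ 4w replicate 3 stood apart from the other PQ 4w libraries: the chi-square per degree of freedom between its counts and those of replicates 1 and 2 was 32.17 and 34.44, against 7.41 to 16.15 for all other pairs within a group. Over the members alone, the first principal component held 57.43% of the variance. It set the 3 PQ 1w libraries, at 4.78 to 5.55, apart from the other 9, at -3.06 to -0.42. Over all genes tested the first component held 51.14%. It likewise set the PQ 1w libraries, at 68.94 to 73.77, apart from the others, at -40.61 to -6.19. Lung markers were present in every group, with 8 alveolar type 2 markers summing to between 16390 and 33820 CPM. Markers of several cell types differed between groups. In the test described below, 25.9% of all genes were higher and 22.9% lower in PQ 1w than in control 1w (adjusted p under 0.05). Each summed level covers all markers of its list, called or not. Of 8 fibrotic fibroblast markers 7 were higher in PQ 1w than in control 1w, and their summed level was 5986 to 7740 CPM against 1320 to 1404 CPM. All 6 proliferation markers were higher, at 444.5 to 506.7 CPM against 79.59 to 101.1 CPM. Of 10 alveolar fibroblast markers 8 were lower, at 2867 to 3217 CPM against 4501 to 5251 CPM. All 8 alveolar type 2 markers, 7 of 8 endothelial markers, all 7 T cell markers and all 5 B cell markers were lower too, the last at 21.62 to 24.43 CPM against 105.1 to 116.4 CPM. Of 6 macrophage markers 5 were higher, at 805.9 to 880.6 CPM against 322.1 to 347.8 CPM. Of 5 club cell markers 2 were lower, and the list summed to 4685 to 5617 CPM against 22300 to 31290 CPM. Of 6 mesothelial markers 2 were higher, and the list summed to 813.2 to 901.2 CPM against 350.6 to 430.5 CPM. The median log2 effect was -0.75 over the club cell list and 0.25 over the mesothelial list. The part of all these markers in the results on the Wnt members was not tested.

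Of the 55 members 47 had enough counts to be tested. The other 8 were Wnt1, Wnt3, Wnt8a, Wnt8b, Wnt16, Fzd9, Dkk1 and Dkk4, which had between 1 and 62.77 expected counts over all 12 libraries. Dkk1, the best-known antagonist of Lrp5 and Lrp6, was the most abundant of these with 62.77 expected counts.

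Upstream sequence of 36 of the 55 members was matched in RefSeq on GRCm38.p6, as the 250 bases before a transcription start. Both strands of 44 such windows were searched for the TCF/LEF core CTTTGAT, which reads ATCAAAG on the other strand, and for its variant CTTTGTT, which reads AACAAAG there. CTTTGAT was in 3.21% of all 32851 windows of this length, and in 2 of the 44 member windows, 1 each of Wnt5b and Wnt11. CTTTGTT was in 5.03% of all windows, and in 2 of the 44 member windows, 1 each of Dkk1 and Fzd7. The 4 windows below belong to members with a change at 1w described further on: Axin2 and Nkd1, the usual readouts of the pathway, and Wnt5b and Fzd7, which hold a motif. They lie at chr11:108920099-108920348 (Axin2, plus strand), chr8:88527383-88527632 (Nkd1, plus strand), chr6:119449387-119449636 (Wnt5b, minus strand) and chr1:59481897-59482146 (Fzd7, plus strand). Wnt5b had 3 windows, and the 1 that holds the motif is shown. The windows of Axin2, Nkd1 and Wnt5b lie inside the listed span of the gene, upstream of an internal start. Capitals mark the motif, which begins 71 bases before the start in Wnt5b and 130 bases before it in Fzd7.
Axin2: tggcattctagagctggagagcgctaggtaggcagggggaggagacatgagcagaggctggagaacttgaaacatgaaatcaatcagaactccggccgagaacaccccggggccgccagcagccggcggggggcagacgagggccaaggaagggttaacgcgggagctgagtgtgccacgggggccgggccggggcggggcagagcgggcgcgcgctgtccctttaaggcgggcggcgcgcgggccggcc
Nkd1: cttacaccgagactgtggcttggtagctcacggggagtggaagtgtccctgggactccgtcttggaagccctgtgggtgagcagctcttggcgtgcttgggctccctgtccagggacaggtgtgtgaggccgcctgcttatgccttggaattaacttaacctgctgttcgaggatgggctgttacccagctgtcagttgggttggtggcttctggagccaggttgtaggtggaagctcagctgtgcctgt
Wnt5b: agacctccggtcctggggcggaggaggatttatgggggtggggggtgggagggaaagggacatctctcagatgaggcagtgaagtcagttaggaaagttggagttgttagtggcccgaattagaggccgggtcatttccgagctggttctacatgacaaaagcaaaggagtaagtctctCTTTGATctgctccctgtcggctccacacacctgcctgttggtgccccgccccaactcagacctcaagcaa
Fzd7: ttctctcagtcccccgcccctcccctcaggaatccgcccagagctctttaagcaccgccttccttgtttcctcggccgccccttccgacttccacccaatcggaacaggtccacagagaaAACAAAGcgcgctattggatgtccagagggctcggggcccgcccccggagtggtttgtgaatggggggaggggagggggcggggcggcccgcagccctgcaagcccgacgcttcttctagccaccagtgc
The windows of Axin2 and Nkd1 held neither run of letters. A match of this kind describes the letters and says nothing of whether a factor binds there. CpG dinucleotides were more frequent in the member windows, with a median of 16.5 per window against 6 over all windows.

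At 1w after paraquat, 9 of the 14 tested ligands were higher, the secreted inhibitors moved in both directions, and the 5 feedback inhibitors and TCF/LEF factors that passed the test (of 7) were all lower. Sfrp1, a secreted decoy for Wnt ligands, rose 7.29-fold, Rspo3 5.45-fold, Wnt7a 3.08-fold and Wnt5a 2.73-fold. Lef1, Tcf7, Axin2, Nkd1 and Rnf43 were lower. Of the 47 tested members 19 were higher and 13 lower in PQ 1w than in control 1w at an adjusted p under 0.05 in edgeR's quasi-likelihood test, with Benjamini-Hochberg adjustment over all 15921 genes tested. Of all genes tested 48.8% passed in either direction, 25.9% higher and 22.9% lower, and these shares apply to every 1w count by role below. At least 2-fold differences were found for 14 members upward and 4 downward, where 12.3% of all genes passed both criteria in either direction. The 3 PQ 1w values lay wholly above or below the 3 control 1w values for 23 and 13 members, and such separation was found for 58.7% of all genes. The median log2 effect was 0.16 over the members and 0.00 over all genes. Each effect below is a log2 difference of group means with its approximate standard error.

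**Figure D1:**
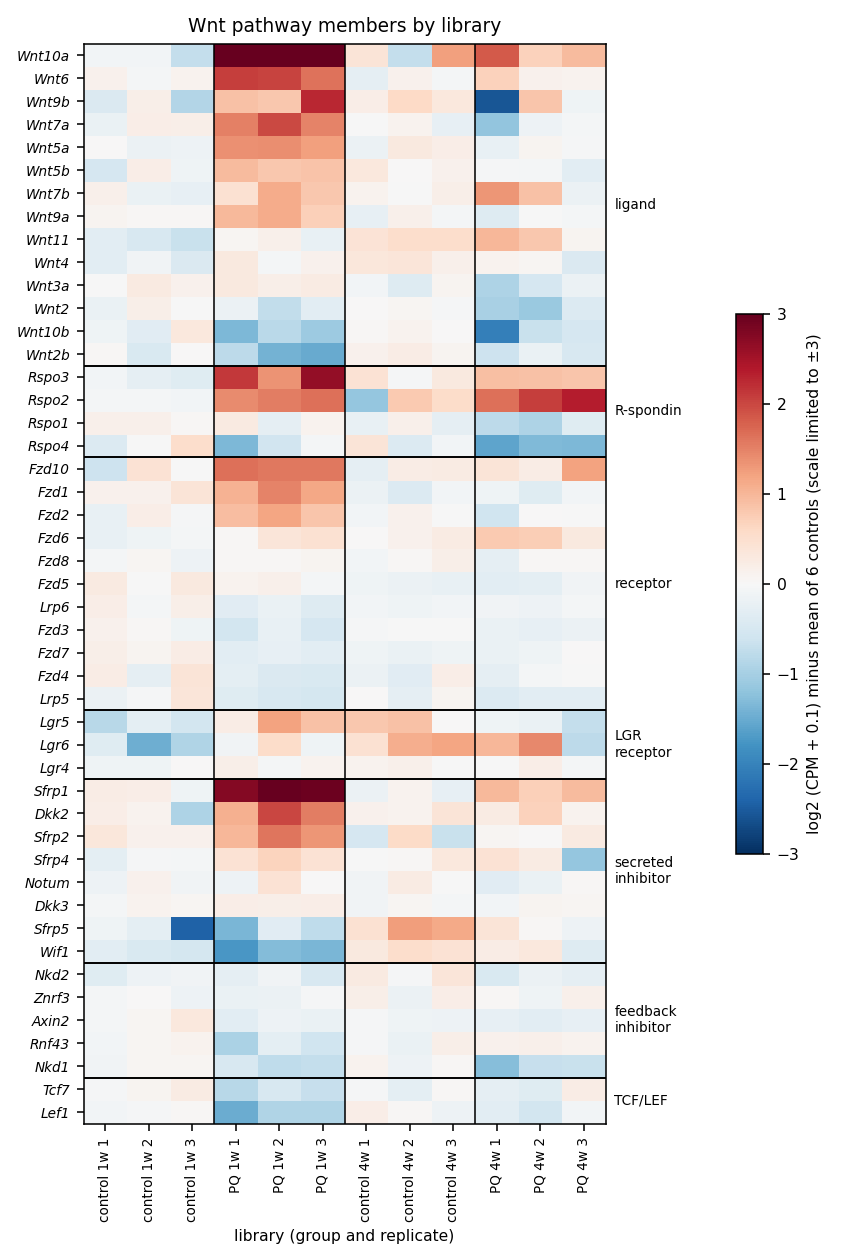
Each row is 1 of 47 tested members, grouped by role, and each column 1 of 12 libraries; colour gives the difference of log2 (CPM + 0.1) from the average control (n = 6), limited to 3 in either direction. The 3 PQ 1w columns hold most of the dark red, among them Wnt10a and Sfrp1, while Lef1, Tcf7 and Nkd1 are blue there.

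Among the 14 tested ligands 9 rose, 2 fell and 3 did not pass at 1w, with a median log2 effect of 0.90. Wnt5a (chr14:28504543-28527448, GRCm38) stood at 14.1, 12.4 and 12.8 CPM in control 1w and at 36.8, 37.3 and 33.2 CPM in PQ 1w. All 3 PQ values were above all 3 control values, and the effect was 1.45 ± 0.12 (adjusted p = 1.94e-06). Wnt7a (chr6:91363981-91411353), a ligand of epithelial origin in many organs, rose from 8.04, 10.6 and 10.4 CPM to 26.5, 36.7 and 26.2 CPM. Its lowest PQ value was well above its highest control value (effect 1.62 ± 0.24, adjusted p = 0.000166). Wnt5b (chr6:119432531-119544824), the close relative of Wnt5a, went from 2.26, 3.75 and 3.01 CPM to 6.44, 5.78 and 6.05 CPM (effect 1.02 ± 0.18, adjusted p = 0.000622). The span of Wnt5b overlaps that of Fbxl14, so its counts could hold reads of that gene. Wnt9a, a ligand studied in joint development, rose by a log2 of 0.90 ± 0.14 (adjusted p = 0.000187).

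Some ligands were close to absent in control lung and were readily counted in PQ 1w. Wnt10a (chr1:74792019-74804176) had 0.0566, 0.0569 and 0 CPM in control 1w and 1.21, 2.56 and 1.75 CPM in PQ 1w. These were 2 counts against 101 counts summed over the 3 libraries, a ratio of 49.0 per library size with a 95% exact interval of 13.2 to 410 that covers counting error only (effect in the fit 5.37 ± 0.76, adjusted p = 0.00012). Wnt6 (chr1:74754342-74785322), its neighbour on chromosome 1, had 0.34, 0.284 and 0.334 CPM in control 1w and 1.6, 1.53 and 1.15 CPM in PQ 1w (effect 2.13 ± 0.31, adjusted p = 0.000132). All PQ 1w values of both genes lay above all control 1w values. Wnt9b had 0.34, 0.569 and 0.223 CPM in control 1w and 0.99, 0.926 and 2.73 CPM in PQ 1w, where replicate 3 was the highest (effect 2.02 ± 0.71, adjusted p = 0.0327). The Wnt9b call was lost without control 1w replicate 1 (adjusted p = 0.087), control 1w replicate 3 (0.1) or PQ 1w replicate 3 (0.18), and its span overlaps that of Wnt3. Wnt7b, a ligand of the airway and alveolar epithelium whose span overlaps that of AU022754, rose by 0.91 ± 0.30 (adjusted p = 0.0237), and Wnt4 rose by 0.41 ± 0.15 (adjusted p = 0.0354). Leaving out any of 4 libraries ended each of these calls: adjusted p reached 0.091 for Wnt7b without PQ 1w replicate 2 and 0.14 for Wnt4 without PQ 1w replicate 1.

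Wnt2b and Wnt10b were the 2 ligands that fell at 1w. Wnt2b (chr3:104944805-104961709), known for its part in specifying the lung bud, dropped from 7.7, 5.4 and 7.52 CPM to 4.29, 2.72 and 2.56 CPM (effect -1.11 ± 0.21, adjusted p = 0.000984). Its span overlaps that of St7l. Wnt10b (chr15:98770712-98778206), best known from fat and bone, went from 9.62, 8.3 and 13 CPM to 4.07, 5.94 and 4.85 CPM (effect -1.06 ± 0.31, adjusted p = 0.0128). No PQ 1w value of either gene reached a control 1w value. The Wnt10b call was lost without control 1w replicate 3 (adjusted p = 0.063) or PQ 1w replicate 1 (0.052). The 3 ligands that did not pass were Wnt2 (-0.39, adjusted p = 0.1), Wnt3a (0.11, adjusted p = 0.614) and Wnt11 (0.49, adjusted p = 0.0651).

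Per transcript length, the order of the ligands differed between the groups. The authors' FPKM values (fragments scaled to length and depth) allow genes to be set side by side, and summed over all ligands they came to 40.6 ± 0.78 (SD, n = 3) in control 1w and 59.8 ± 2.91 in PQ 1w. Wnt3a (6.40 ± 0.59 FPKM) and Wnt2 (5.72 ± 0.69 FPKM) led in control 1w, and these neighbours did not differ beyond their spread. In PQ 1w the leading ligands were Wnt7a (9.25 ± 1.87 FPKM), Wnt5a (8.75 ± 0.33 FPKM) and Wnt9a (7.60 ± 1.01 FPKM), whose ranges of 1 SD also met. Wnt7a made up 7.32% of ligand FPKM in control 1w and 15.45% in PQ 1w, and Wnt5a 7.98% and 14.63%. Summed ligand FPKM was 46.5 ± 1.92 in control 4w and 41.1 ± 2.27 in PQ 4w.

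**Figure D2:**
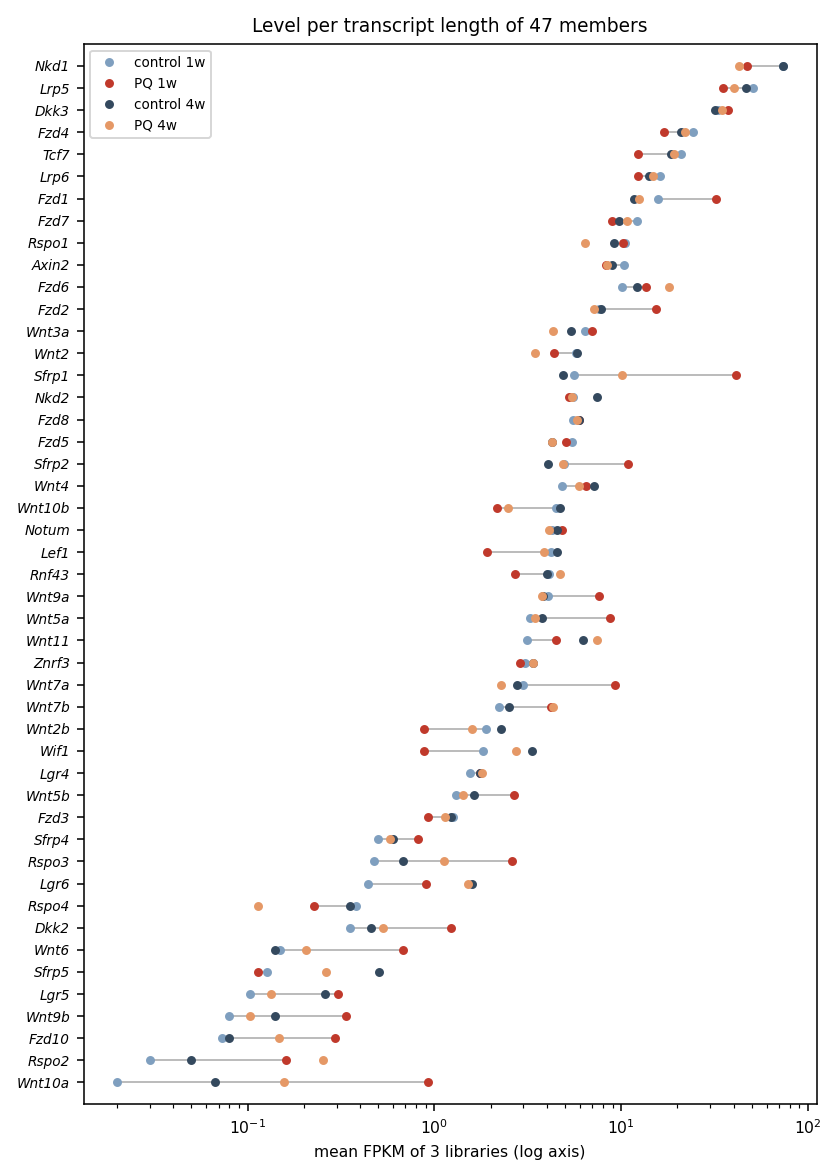
Mean FPKM of 3 libraries on a log axis for 47 tested members, ordered by control 1w, with 1 point per group and a grey line from control 1w to PQ 1w. Nkd1 is the highest member in control 1w at 73.9 FPKM, and Sfrp1 moves up to 41.1 FPKM in PQ 1w.

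R-spondins amplify Wnt signals, and 2 of the 4 rose at 1w. Rspo3 (chr10:29453106-29535867), which stromal and endothelial cells are known to make, had 1.3, 1.14 and 1.06 CPM in control 1w and 6.33, 3.71 and 9.11 CPM in PQ 1w (effect 2.45 ± 0.30, adjusted p = 3.44e-05). The PQ 1w libraries differed among themselves by more than 2-fold, and all lay above the controls. Rspo2 (chr15:43020788-43171594) had 0.113, 0.114 and 0.111 CPM in control 1w and 0.495, 0.545 and 0.6 CPM in PQ 1w (effect 2.21 ± 0.61, adjusted p = 0.0101). This rests on few counts, with 90 over all 12 libraries. Rspo1 (-0.06, adjusted p = 0.809) and Rspo4 (-0.74, adjusted p = 0.152) did not pass at 1w. Rspo1 nevertheless held most of the R-spondin FPKM, 92.24% in control 1w and 77.24% in PQ 1w, where Rspo3 held 19.83%.

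Among the 11 tested receptors and co-receptors 4 rose and 5 fell at 1w. Fzd1 (chr5:4753839-4758216) rose from 66.6, 66.7 and 79.4 CPM to 125, 169 and 137 CPM (effect 1.02 ± 0.12, adjusted p = 3.78e-05). Fzd10 (chr5:128601106-128604093), a receptor with few counts in this tissue, had 0.113, 0.341 and 0.223 CPM in control 1w and 0.935, 0.872 and 0.873 CPM in PQ 1w (effect 1.95 ± 0.42, adjusted p = 0.00239). Neither gene had overlapping groups. Fzd2 rose by 0.998 ± 0.16 (adjusted p = 0.000246) and Fzd6 by 0.42 ± 0.13 (adjusted p = 0.0197), and the Fzd6 call was lost without control 1w replicate 1, PQ 1w replicate 2 or PQ 1w replicate 3, where adjusted p reached 0.084.

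Both Wnt co-receptors fell. Lrp5 (chr19:3584825-3686585) had 229, 250 and 332 CPM in control 1w and 199, 183 and 177 CPM in PQ 1w (effect -0.54 ± 0.13, adjusted p = 0.00396). Lrp6 (chr6:134446476-134566913) went from 166, 139 and 164 CPM to 115, 127 and 112 CPM (effect -0.41 ± 0.07, adjusted p = 0.00074). For each, every PQ 1w value was below every control 1w value. Fzd7 fell by 0.46 on the log2 scale (adjusted p = 0.000178), Fzd3 by 0.45 (adjusted p = 0.00372) and Fzd4, a receptor of endothelium that also binds norrin, by 0.53 (adjusted p = 0.0166). The Fzd4 call was lost without any 1 of 4 libraries, with adjusted p up to 0.093 without control 1w replicate 3, and its span overlaps that of Tmem135. Fzd5 (-0.11) and Fzd8 (0.10) did not pass. Per length, Fzd4 made up 29.62% of Frizzled FPKM in control 1w and 17.15% in PQ 1w, and Fzd1 19.08% and 32.25%. Over the same groups the 8 endothelial markers summed to 4268 to 4868 CPM and 2731 to 3211 CPM, and their part in the Fzd4 value was not tested.

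The Lgr receptors bind R-spondins, and 1 of the 3 rose at 1w, where 25.9% of all genes rose. Lgr5 (chr10:115450314-115587780), a stem cell marker in the gut, had 0.396, 0.626 and 0.501 CPM in control 1w and 0.935, 1.96 and 1.53 CPM in PQ 1w (effect 1.53 ± 0.37, adjusted p = 0.00482). The groups did not overlap, although the lowest PQ 1w library was less than 2-fold above the highest control. The span of Lgr5 overlaps that of A930009A15Rik. Lgr6 had 2.32, 1.02 and 1.56 CPM in control 1w and 2.81, 4.41 and 2.73 CPM in PQ 1w, a difference of 1.02 ± 0.50 that did not pass (adjusted p = 0.112) except when only these 6 libraries were fitted (adjusted p = 0.022). Lgr4 did not pass either (0.16, adjusted p = 0.276).

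Extracellular inhibitors moved in both directions, with 3 of the 8 tested higher and 1 lower at 1w. Of all genes tested 25.9% were higher and 22.9% lower. Sfrp1 (chr8:23411383-23449632) had 27.3, 26.8 and 21.6 CPM in control 1w and 160, 210 and 182 CPM in PQ 1w (effect 2.87 ± 0.13, adjusted p = 2.92e-08). It had the smallest adjusted p of the 47 members at 1w. Sfrp2 (chr3:83765750-83774314), a matrix-associated relative made by fibroblasts, went from 11, 9.55 and 9.58 CPM to 17.4, 26.5 and 22 CPM (effect 1.13 ± 0.26, adjusted p = 0.00389). Dkk2 (chr3:132085266-132180304), a ligand of Lrp5 and Lrp6, went from 1.7, 1.59 and 0.724 CPM to 3.19, 6.21 and 4.47 CPM (effect 1.79 ± 0.32, adjusted p = 0.000643). None of these groups overlapped. Summed FPKM of the Sfrp family was 11.2 ± 1.08 in control 1w and 53.0 ± 8.22 in PQ 1w, and Sfrp1 held 50.1% and 77.67% of it. Fibrotic fibroblast markers moved in the same direction over these libraries, as given above, and their part in the Sfrp values was not tested.

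Wif1 (chr10:121034004-121100642), which binds Wnt ligands directly, moved the opposite way. It stood at 4.53, 4.09 and 3.9 CPM in control 1w and at 1.6, 2.23 and 2.13 CPM in PQ 1w, with every PQ value below every control (effect -1.07 ± 0.21, adjusted p = 0.0011). Notum, a secreted enzyme that strips the lipid from Wnt ligands, had 8.09, 9.84 and 8.3 CPM in control 1w and 8.09, 12.2 and 9.05 CPM in PQ 1w, with overlapping groups (0.16 ± 0.17, adjusted p = 0.456). Dkk3 (0.16, adjusted p = 0.0602), Sfrp4 (0.69, adjusted p = 0.126) and Sfrp5 (-0.16, adjusted p = 0.876) did not pass. Dkk3, a divergent member of its family, was nevertheless among the highest members per length, at 33.1 ± 1.57 FPKM in control 1w.

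Feedback inhibitors and TCF/LEF factors act inside or at the surface of the responding cell. Of the 5 feedback inhibitors 3 fell and none rose at 1w, and both TCF/LEF factors fell. Axin2 (chr11:108917828-108950783), a scaffold of the beta-catenin destruction complex, went from 40, 43.9 and 52.4 CPM to 33.8, 37.7 and 36.4 CPM (effect -0.34 ± 0.09, adjusted p = 0.00795). The highest PQ 1w value was close below the lowest control value. Nkd1 (chr8:88521342-88594887), which restrains Dishevelled, went from 304, 340 and 339 CPM to 233, 192 and 197 CPM (effect -0.66 ± 0.14, adjusted p = 0.00207). Rnf43 fell by 0.62 on the log2 scale (adjusted p = 0.00412). Its span overlaps that of 1110028F11Rik. Znrf3 (-0.08, adjusted p = 0.563) and Nkd2 (-0.08, adjusted p = 0.64) did not pass.

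Lef1 (chr3:131110297-131224357) stood at 11.5, 11.9 and 12.6 CPM in control 1w and at 4.29, 6.49 and 6.49 CPM in PQ 1w (effect -1.06 ± 0.17, adjusted p = 0.000316). Tcf7 (chr11:52246527-52283383) stood at 51.5, 56.2 and 62.3 CPM in control 1w and at 29.9, 38.1 and 32.9 CPM in PQ 1w (effect -0.75 ± 0.15, adjusted p = 0.00137). Both groups were fully separated for both genes, which are also known from T cells. T cell markers were lower over the same libraries, all 7 of 7, with a summed level of 55.47 to 67.34 CPM in control 1w and 25.25 to 27.32 CPM in PQ 1w. None of the T cell markers was at 0 in any group, and their part in the Lef1 and Tcf7 values was not tested. The span of Tcf7 also overlaps that of Skp1.

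**Figure D3:**
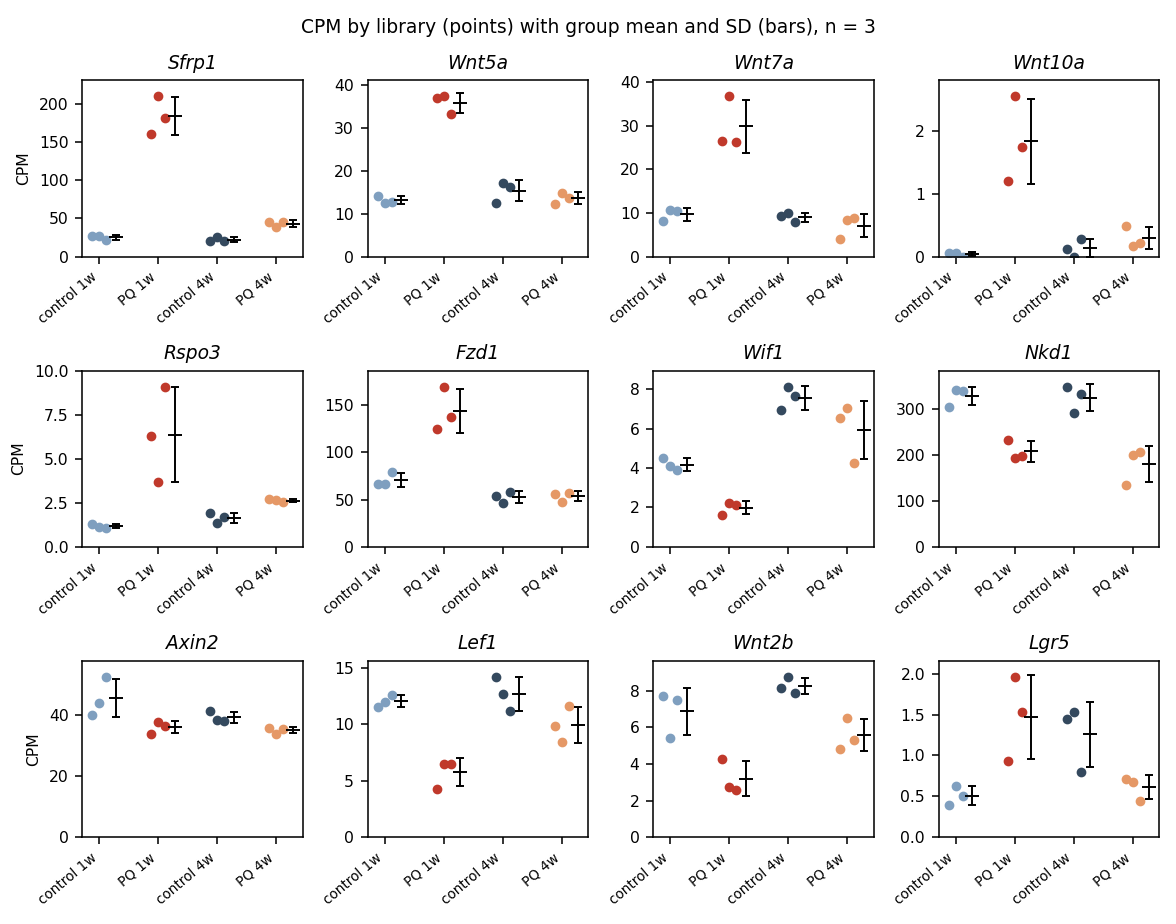
CPM of 12 members in each library (points, n = 3 per group) with the group mean and SD (black bars), each panel with its own linear axis from 0. Sfrp1, Wnt5a, Wnt7a, Wnt10a, Rspo3 and Fzd1 are highest in PQ 1w, Nkd1 is low in both PQ groups, and Lgr5 is above its control at 1w and below it at 4w.

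At 4w after paraquat few members differed from control. Sfrp1 was still 1.96-fold higher, Rspo2 4.70-fold higher and Fzd6 higher by a log2 of 0.50, while Nkd1 was 1.80-fold lower and Wnt2, Rspo1, Rspo4 and Nkd2 were lower. Of the 47 tested members 3 were higher, 5 lower and 39 did not pass in PQ 4w against control 4w. Of all genes tested 12.1% passed, 5.75% higher and 6.39% lower. At an unadjusted p under 0.05 the number of members was 16 of 47, against 4456 of all 15921 genes tested. At least 2-fold differences were found for 1 member in each direction, against 2.44% of all genes in either direction, and the groups did not overlap for 4 members upward and 14 downward, against 31.2% of all genes. The median log2 effect was -0.13 over the members and 0.00 over all genes. With scaling by library totals alone the members counted were 3 higher and 4 lower, and the share of all calls that were higher went from 47.36% to 68.47%, while the median of all genes shifted to 0.08.

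Sfrp1 had 20.8, 25.4 and 19.9 CPM in control 4w and 45.8, 38.4 and 45.5 CPM in PQ 4w, well apart (effect 0.97 ± 0.13, adjusted p = 0.0014). Rspo2 had 0, 0.283 and 0.228 CPM in control 4w and 0.605, 0.844 and 1.04 CPM in PQ 4w (effect 2.23 ± 0.54, adjusted p = 0.0196). All PQ 4w values of Rspo2 were above its controls, and fitting only these 6 libraries gave an adjusted p of 0.092. Fzd6, a receptor of the planar cell polarity branch, had 46.9, 50.8 and 54.7 CPM in control 4w and 80.4, 78 and 57.3 CPM in PQ 4w (effect 0.50 ± 0.13, adjusted p = 0.0282). PQ 4w replicate 3 lay close above the controls. The Fzd6 call was lost without control 4w replicate 1 or 2 or PQ 4w replicate 1 or 2, where adjusted p reached 0.11. It was also lost when only these 6 libraries were fitted (adjusted p = 0.075).

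Nkd1 had 348, 291 and 332 CPM in control 4w and 135, 200 and 206 CPM in PQ 4w (effect -0.85 ± 0.14, adjusted p = 0.00372). The groups were far apart, and PQ 4w replicate 1 was the lowest. Wnt2 (chr6:17985474-18032772), a ligand of lung mesenchyme, had 12.4, 12.8 and 12 CPM in control 4w and 6.27, 5.68 and 9.22 CPM in PQ 4w (effect -0.81 ± 0.19, adjusted p = 0.0177). Without control 4w replicate 1 or 2 or PQ 4w replicate 1 or 2 the adjusted p of Wnt2 was between 0.057 and 0.068. With only these 6 libraries it was 0.055. Rspo4 (chr2:151842647-151874668) had 1.16, 0.622 and 0.799 CPM in control 4w and 0.22, 0.281 and 0.274 CPM in PQ 4w (effect -1.70 ± 0.47, adjusted p = 0.0347), with no overlap. Its call was lost when any library but control 4w replicate 2 was left out, with adjusted p from 0.059 to 0.14. Each limma fit (up to 0.082) and only these 6 libraries (0.055) also ended the Rspo4 call. Rspo1 (-0.58 ± 0.17, adjusted p = 0.0492) lost its call without any library but PQ 4w replicate 3, with adjusted p up to 0.2, and also with RLE factors (0.06), library totals (0.084), no filter (0.061), each limma fit (up to 0.12) and only these 6 libraries (0.11). Nkd2 (-0.51 ± 0.13, adjusted p = 0.025) lost it without control 4w replicate 1 or 3 or PQ 4w replicate 1, with adjusted p up to 0.1. Each limma fit (up to 0.064) and only these 6 libraries (0.067) also ended the Nkd2 call.

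Wnt10b came close to the threshold at 4w. It had 10.7, 11.2 and 10.6 CPM in control 4w and 2.47, 6.53 and 7.36 CPM in PQ 4w, all PQ values below all controls (-0.99 ± 0.30, adjusted p = 0.0533). It passed without PQ 4w replicate 3 (-1.27, adjusted p = 0.021) and with DESeq2 (-0.97, adjusted p = 0.022). Wnt2b had 8.16, 8.77 and 7.88 CPM in control 4w and 4.84, 6.53 and 5.33 CPM in PQ 4w, again without overlap (-0.57, adjusted p = 0.0844). Endothelial markers were lower at 4w for 8 of 8 genes, at 2708 to 3510 CPM against 4584 to 4988 CPM. Of 10 alveolar fibroblast markers 4 were lower and 1 was higher at 4w. Their summed levels overlapped, at 3942 to 4389 CPM in PQ 4w against 4178 to 4472 CPM in control 4w. The part of either list in the lower ligand values was not tested.

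None of the 9 ligands that had risen at 1w passed at 4w in edgeR. Of all 14 tested ligands 6 had an unadjusted p under 0.05 there, against 4456 of all 15921 genes tested. Wnt5a had 12.5, 17.1 and 16.3 CPM in control 4w and 12.2, 14.9 and 13.7 CPM in PQ 4w (-0.17, adjusted p = 0.39). Wnt7a had 9.2, 9.95 and 7.82 CPM in control 4w and 4.01, 8.33 and 8.84 CPM in PQ 4w (-0.35, adjusted p = 0.404), with the lowest value in PQ 4w replicate 1. Wnt5b had 4.11, 3.28 and 3.6 CPM in control 4w and 3.19, 3.15 and 2.64 CPM in PQ 4w (-0.29, adjusted p = 0.343). In Wnt5a and Wnt7a the groups overlapped, and in Wnt5b the PQ 4w values lay close below the controls. Wnt10a had 0.116, 0 and 0.285 CPM in control 4w and 0.495, 0.169 and 0.22 CPM in PQ 4w (1.11, adjusted p = 0.405). Wnt6 had 0.231, 0.339 and 0.285 CPM in control 4w and 0.55, 0.338 and 0.329 CPM in PQ 4w (0.50, adjusted p = 0.514). Wnt9b had 0.579, 0.792 and 0.628 CPM in control 4w and 0, 0.956 and 0.439 CPM in PQ 4w (-0.52, adjusted p = 0.701). These 3 ligands had under 1 CPM in every 4w library, and each had overlapping groups. Wnt7b had 8.85, 8.14 and 9.3 CPM in control 4w and 20.6, 15.1 and 7.25 CPM in PQ 4w (0.71 ± 0.30, adjusted p = 0.142). Its first 2 PQ 4w libraries were above all controls and replicate 3 was below them, and its level in PQ 4w differed from that in PQ 1w by -0.02 (adjusted p = 0.951). Wnt9a (-0.10, adjusted p = 0.678) and Wnt4 (-0.35, adjusted p = 0.135) did not pass.

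Apart from Fzd6, Rspo2 and Sfrp1, the receptors, R-spondins and secreted inhibitors that had changed at 1w did not pass at 4w. Fzd1 had 54.2, 45.8 and 57.5 CPM in control 4w and 55.9, 47.2 and 56.9 CPM in PQ 4w (0.02, adjusted p = 0.929). Fzd10 had 0.174, 0.283 and 0.285 CPM in control 4w and 0.33, 0.281 and 0.659 CPM in PQ 4w (0.76, adjusted p = 0.321). Rspo3 had 1.91, 1.36 and 1.71 CPM in control 4w and 2.69, 2.64 and 2.53 CPM in PQ 4w, without overlap (0.66, adjusted p = 0.171). Of Fzd1, Fzd10 and Rspo3, only Rspo3 had separated groups, and its test did not pass. Fzd3 was separated too, at 16.0 to 16.4 CPM in control 4w and 13.8 to 14.4 CPM in PQ 4w, and did not pass. Sfrp2 had 6.13, 13 and 5.42 CPM in control 4w and 9.02, 8.72 and 10.5 CPM in PQ 4w (0.21, adjusted p = 0.67). Control 4w replicate 2 was the highest Sfrp2 library, and without it the effect was 0.72 (adjusted p = 0.04). Dkk2 had 1.62, 1.58 and 1.94 CPM in control 4w and 1.76, 2.42 and 1.59 CPM in PQ 4w (0.16, adjusted p = 0.787). Wif1 had 6.94, 8.14 and 7.65 CPM in control 4w and 6.54, 7.03 and 4.28 CPM in PQ 4w (-0.35, adjusted p = 0.238). Notum had 8.33, 10.6 and 8.85 CPM in control 4w and 7.09, 7.76 and 9.17 CPM in PQ 4w (-0.21, adjusted p = 0.461). Dkk2, Wif1 and Notum all had overlapping groups.

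Co-receptors and responders were likewise mostly within the controls' range or close below it at 4w. Lrp5 had 261, 214 and 270 CPM in control 4w and 193, 206 and 208 CPM in PQ 4w (-0.29, adjusted p = 0.151). Lrp6 had 137, 133 and 138 CPM in control 4w and 135, 131 and 140 CPM in PQ 4w (-0.01, adjusted p = 0.971), and the sign of this value changed with the scaling. Axin2 had 41.1, 38.2 and 38.1 CPM in control 4w and 35.7, 33.8 and 35.2 CPM in PQ 4w (-0.16, adjusted p = 0.26). For Lrp5 and Axin2 the PQ 4w values were all below the controls, by little. Lef1 had 14.2, 12.7 and 11.1 CPM in control 4w and 9.79, 8.38 and 11.6 CPM in PQ 4w (-0.35, adjusted p = 0.191). Tcf7 had 51.6, 43.5 and 54.3 CPM in control 4w and 44.3, 41 and 62 CPM in PQ 4w (-0.02, adjusted p = 0.946), and the sign of this value too changed with scaling by library totals. In PQ 4w replicate 3 both transcription factors were at their highest of the group. T cell markers at 4w summed to 41.85 to 44.67 CPM in control and 48.83 to 92.67 CPM in PQ, with 3 of 7 higher, and their part here was not tested.

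Lgr5 and Lgr6 also differed between the control groups. Lgr5 had 1.45, 1.53 and 0.799 CPM in control 4w and 0.715, 0.675 and 0.439 CPM in PQ 4w, all below the controls (-1.04 ± 0.37, adjusted p = 0.0883). Lgr6 had 4.17, 6.5 and 6.91 CPM in control 4w and 6.05, 8.33 and 1.7 CPM in PQ 4w (-0.13, adjusted p = 0.879), with the lowest value of that group in replicate 3. Between the controls, 4w against 1w, Lgr6 was higher by 1.84 ± 0.49 (adjusted p = 0.0379) and Lgr5 by 1.30 ± 0.38 (adjusted p = 0.0495). In all, 5 members were higher and 3 lower in control 4w than in control 1w, against 5.90% and 4.20% of all genes, or 10.1% in either direction. The others were Wnt11 (0.98, adjusted p = 0.0219), Wif1 (0.86, adjusted p = 0.0241) and Wnt4 (0.57, adjusted p = 0.0355), which were higher, and Fzd1 (-0.43, adjusted p = 0.0487), Fzd5 (-0.37, adjusted p = 0.0359) and Fzd7 (-0.32, adjusted p = 0.0238), which were lower. Leaving out single control libraries left 0 to 3 members higher and 0 to 3 lower, with 0 in both directions without control 1w replicate 3, control 4w replicate 2 or control 4w replicate 3. The control 4w libraries also had more signal from cardiac muscle markers, at 503.4 to 1399 CPM against 47.89 to 267.7 CPM in control 1w, and more from club cell markers, at 46080 to 54930 CPM against 22300 to 31290 CPM. The part of either in these values was not tested.

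The paraquat effect was tested for a difference between the times directly. This interaction, the 4w effect minus the 1w effect, passed for 18 members, 13 with a lower and 5 with a higher effect at 4w, against 17.9% and 14.1% of all genes, or 32.0% in either direction. Lgr5 had the largest of these 18 differences among members averaging above 0.5 CPM in both paraquat groups: its effect of 1.53 at 1w and -1.04 at 4w differed by -2.56 ± 0.52 (adjusted p = 0.00325). Sfrp1 differed by -1.89 ± 0.18 (adjusted p = 4.04e-05), Wnt7a by -1.97 ± 0.35 (adjusted p = 0.00137), Wnt5a by -1.62 ± 0.17 (adjusted p = 7.43e-05) and Rspo3 by -1.79 ± 0.42 (adjusted p = 0.00729). The estimated paraquat effect of these members was thus smaller or of opposite sign at 4w, where only that of Sfrp1 passed. Part of the Lgr5 difference lies between the controls. Lgr5 was higher in control 4w than in control 1w by 1.30 ± 0.38 (adjusted p = 0.0495), and its 4w paraquat effect did not pass (adjusted p = 0.0883). In the other direction Tcf7 differed by 0.73 ± 0.21 (adjusted p = 0.02) and Lrp6 by 0.40 ± 0.11 (adjusted p = 0.0124). The Tcf7 difference was lost without control 1w replicate 3 (adjusted p = 0.056) or PQ 1w replicate 1 (0.051). For Nkd1 the difference was -0.19 ± 0.20 and did not pass (adjusted p = 0.502), and for Axin2 it was 0.17 ± 0.13 (adjusted p = 0.322).

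**Figure D4:**
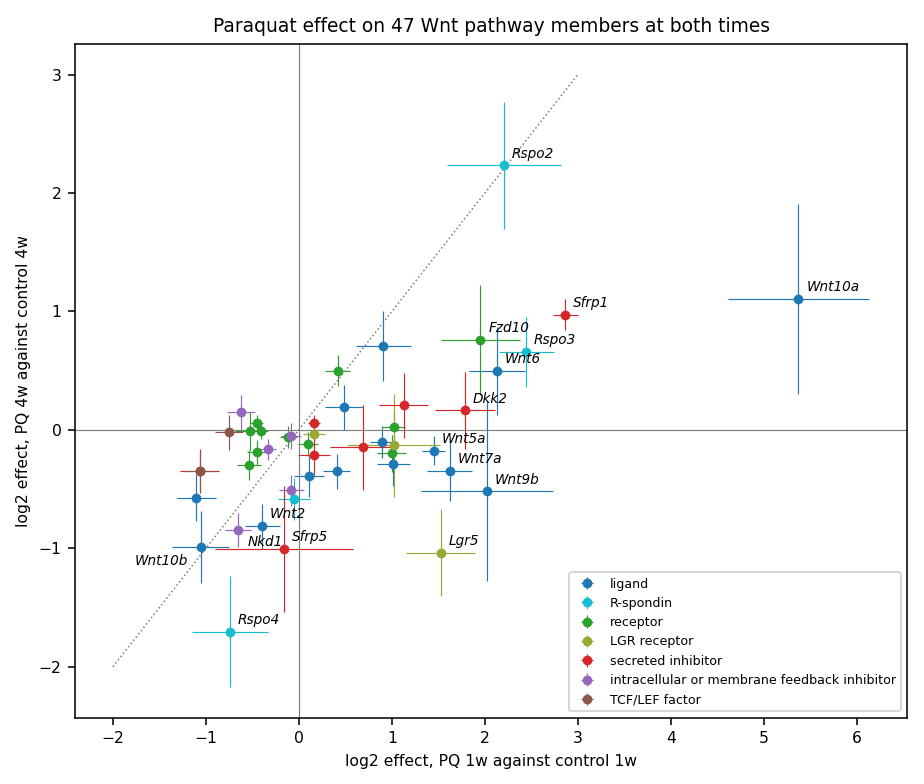
Log2 effect of paraquat at 1w (horizontal) against 4w (vertical) for 47 members, with approximate standard errors and colour by role; the dotted line marks equal effects. Most points right of 0 lie well below the line, Rspo2 and Nkd1 lie near it, and Lgr5 lies at 1.53 and -1.04.

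Calls at the 2 times overlapped in part. Of the 19 members higher at 1w, 3 were also higher at 4w (15.8% of the 1w list and 100% of the 4w list): Fzd6, Rspo2 and Sfrp1. Of the 13 lower at 1w, 1 was also lower at 4w (7.7% of the 1w list, and 1 of the 5 of the 4w list), Nkd1. Of all genes 25.9% were higher at 1w and 5.75% at 4w, and 22.9% and 6.39% were lower. The same overlap was not counted over all genes, so the percentages of the lists describe these members alone. Directly between the paraquat groups, 9 members were higher and 19 lower in PQ 4w than in PQ 1w, where 26.7% of all genes were higher, 27.8% lower and 54.5% either. Of the 19 members higher at 1w, 15 were called lower in PQ 4w than in PQ 1w, and of the 13 lower at 1w, 7 were called higher. Sfrp1 was 4.25-fold lower in PQ 4w than in PQ 1w (adjusted p = 1.87e-07), and Wif1 2.99-fold higher (adjusted p = 5.07e-05). Wif1 was also 1.81-fold higher in control 4w than in control 1w, and its interaction did not pass (0.72 ± 0.28, adjusted p = 0.0642). Since the 1w list was chosen on PQ 1w values, these counts describe the list and test nothing further.

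The rest of the pathway was read from 7 lists holding 86 further genes, of which 81 were tested. At 1w 28 were higher and 17 lower, and at 4w 2 were higher and 7 lower, against the same background shares of all genes. At 1w the median log2 effect of these 81 genes was 0.16, and at 4w -0.05. Both genes of Wnt secretion rose at 1w: Porcn, which attaches the lipid (0.64, adjusted p = 0.00687), and Wls, which carries the ligand to the surface (0.41, adjusted p = 0.000192). Of 10 other receptors and co-receptors 5 rose and 2 fell. Ror2, a receptor of Wnt5a, went from 4.19, 6.09 and 5.24 CPM in control 1w to 17.6, 22 and 18.5 CPM in PQ 1w (effect 1.90 ± 0.16, adjusted p = 2.52e-06). It was back at 4.78, 5.51 and 5 CPM in PQ 4w, against 4.63, 4.3 and 5.99 CPM in control 4w. Reck, a membrane partner of Wnt7 ligands, fell by 1.07 on the log2 scale at 1w (adjusted p = 5.58e-06).

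Of 8 further antagonists 4 rose and none fell at 1w. Frzb, another secreted Frizzled-related protein, had 0.17, 0.512 and 0.223 CPM in control 1w and 2.15, 6.05 and 3.11 CPM in PQ 1w (effect 3.62 ± 0.50, adjusted p = 0.000105). The PQ 1w libraries of Frzb differed among themselves but all stood above the controls. Of 23 genes of cytoplasmic transduction 2 rose and 5 fell, among them Dact3, an antagonist of Dishevelled, which rose by 1.10 ± 0.12 (adjusted p = 1.31e-05). Ctnnb1, which encodes beta-catenin itself, did not pass at 1w (-0.12, adjusted p = 0.132). Of 12 nuclear effectors 4 rose and 3 fell. Ctnnbip1, an inhibitor that binds beta-catenin, rose by 1.01 ± 0.11 (adjusted p = 1.58e-05). Of 12 genes of planar cell polarity 2 rose and 6 fell, among them Prickle1 (effect -0.84 ± 0.12, adjusted p = 0.000119).

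The list of other genes often used as beta-catenin targets went the opposite way to Axin2, Nkd1 and Lef1 at 1w, with 9 of 14 higher, 1 lower and a median log2 effect of 0.75. Wisp1, a matricellular protein now called Ccn4, rose from 5.38, 6.14 and 5.46 CPM to 33.7, 49.7 and 51 CPM (effect 2.98 ± 0.22, adjusted p = 8.77e-07). Myc rose from 10.3, 9.84 and 10.5 CPM to 27.6, 24.3 and 26.8 CPM (effect 1.36 ± 0.10, adjusted p = 8.58e-07). Birc5 (effect 2.36, adjusted p = 5.01e-08) and Cyr61 (effect 1.15, adjusted p = 0.0018) also rose. Neither Wisp1 nor Myc had overlapping groups. Several of these genes answer to other signals as well, and Birc5 also stands in the proliferation list, all 6 of whose genes were higher at 1w. The part of proliferation in these values was not tested. At 4w Myc was still higher (effect 0.48 ± 0.11, adjusted p = 0.0132), while Wisp2, also called Ccn5, fell by 1.13 on the log2 scale (adjusted p = 0.0205) and Ccnd1 by 0.52 (adjusted p = 0.00207). Of the other lists at 4w, receptors had 1 higher (Ror1) and 2 lower (Ryk and Tspan12). The cytoplasmic, nuclear and polarity lists had 1 lower each (Csnk1e, Tle4 and Daam2). The secretion and antagonist lists had none. At an unadjusted p under 0.05 they had 1 of 2 and 4 of 8 genes, against 4456 of all 15921 genes tested.

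**Figure D5:**
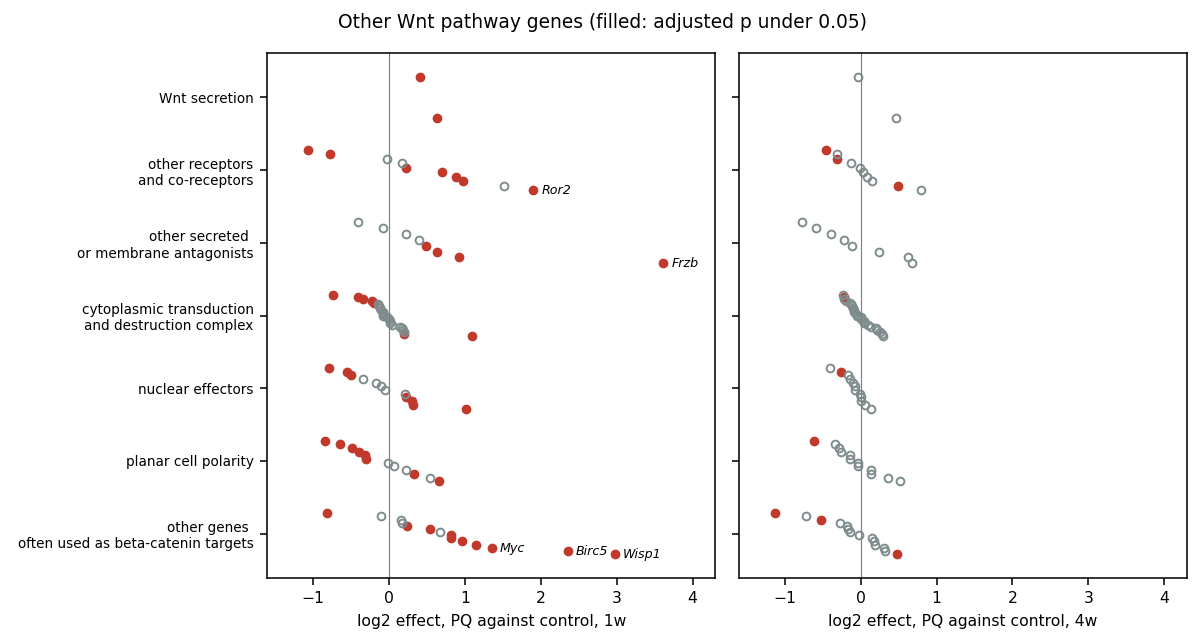
Log2 effect of paraquat on 81 other pathway genes at 1w (left) and 4w (right), with 1 point per gene in 7 lists; filled points had an adjusted p under 0.05. At 1w Frzb (3.62), Wisp1 (2.98), Birc5 (2.36) and Ror2 (1.90) lie farthest to the right, and at 4w 9 points are filled.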

How the data were processed

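RSEM 1.2.12, HISAT and the build mm10 are named in the submitters' processing notes. The authors deposited an expected count for each gene, not scaled to depth, per the file headers. FPKM values, which divide by transcript length and depth, were deposited by the authors beside them. The sources used here do not give the HISAT version, the strandedness or the annotation release, so overlapping genes may share reads. Of the counts above 0, 69.7% were whole, and counts were rounded. A gene missing from a library's table was taken as 0. Gene coordinates were read from NCBI's gene table (GRCm38).

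All 12 libraries were fitted with 4 group means in edgeR 4.0.16 (R 4.3.3): TMM factors, genes kept at a minimum count of 10 and a total of 15, quasi-likelihood F-tests, and Benjamini-Hochberg adjustment over 15921 genes. Standard errors are the log2 effect divided by the root of F and are approximate. CPM used the TMM-scaled totals. The fit was tested on simulated data. Depth (17220978 to 18559809 counts per library) means that 1 count is worth about 0.06 CPM, so members under 1 CPM rest on few counts; intervals cover counting error only.

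Members given in every library were those with an adjusted p under 0.05 and at least 2-fold at either time and a mean of at least 0.5 CPM in a group, plus Axin2, Lef1, Tcf7, Nkd1, Notum, Lgr5, Lgr6, Lrp5 and Lrp6. Wnt2 and Fzd6 were added after their values were seen, and Wnt7b at 4w was also given by library outside this rule. Other pathway genes were named where they passed with at least 2-fold, or as the smallest p of a list; Ctnnb1 and those in short counts were added afterwards. The members and all lists were chosen with earlier results of these data known. Alternatives were DESeq2 1.42.0, other scalings and filters, limma 3.58.1 on log2(FPKM + 0.1) and log2(FPKM + 1), the 2 groups of a contrast alone, a replicate block and leaving out each library. Their use on the counts of other pathway genes and on single interaction effects was added after seeing the data. Replicate numbers are not stated to pair libraries. For same-numbered libraries the correlations of deviations between control and PQ were -0.35, -0.21 and -0.07 at 1w and -0.11, 0.15 and -0.18 at 4w. So few libraries cannot exclude a pairing.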

Additional observations from a re-analysis of the deposited data

Results flagged for a closer look

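The effect of paraquat on 18 members differed between 1w and 4w in the test of the difference itself (edgeR, 12 libraries, log2 effect at 4w minus log2 effect at 1w, adjusted p under 0.05). Of these differences 13 were negative. Among ligands they were -4.27 for Wnt10a, -1.97 for Wnt7a, -1.63 for Wnt6, -1.62 for Wnt5a, -1.31 for Wnt5b, -0.997 for Wnt9a and -0.76 for Wnt4. Among receptors they were -2.56 for Lgr5, -1.20 for Fzd2 and -0.99 for Fzd1. For Rspo3 the difference was -1.79, and among secreted inhibitors it was -1.89 for Sfrp1 and -1.62 for Dkk2. The 5 positive differences were 0.77 for Rnf43, 0.73 for Tcf7, 0.71 for Lef1, 0.52 for Fzd7 and 0.40 for Lrp6. Between the controls, 4w against 1w, Wnt4 (0.57), Lgr5 (1.30), Fzd7 (-0.32) and Fzd1 (-0.43) were called too. Part of the differences of Wnt4, Lgr5 and Fzd7 thus lies between the controls, while the control shift of Fzd1 went against its difference. Wnt10a rests on few counts, and its difference was lost without control 1w replicate 3, control 4w replicate 1 or control 4w replicate 3 (-3.13 and adjusted p = 0.2 without the last). The Lef1 difference was lost without any 1 of 8 libraries, with adjusted p up to 0.08, and that of Wnt6 without any 1 of 6, with adjusted p up to 0.1, and with DESeq2 (-1.62, adjusted p = 0.12).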

How the results depend on the processing

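At 1w the 19 higher and 13 lower members were within 1.5 times of these counts under every alternative run, at 15 to 18 and 11 to 13 without single libraries. At 4w the counts were less stable. The 3 higher members became 1 when only the 6 libraries compared were fitted, and 2 to 4 without single libraries. The 5 lower became 2 under each of the 3 limma fits to FPKM and 1 with only the 6 libraries, and 1 to 6 without single libraries. Between the controls the 5 higher became 2 under limma without a filter and 0 to 3 without single libraries, and the 3 lower became 1 under each limma fit and 0 to 3 without single libraries. For the interaction, leaving out libraries left 3 to 5 higher and 12 to 15 lower, and for PQ 4w against PQ 1w 6 to 9 and 15 to 19. Among the other pathway genes at 4w the 2 higher became 4 with DESeq2, 6 with library totals, 0 with only the 6 libraries and 2 to 4 without single libraries, and the 7 lower became 4 under limma without a filter, 3 with only the 6 libraries and 2 to 7 without single libraries. The cause of these shifts was not tested. Fits of fewer libraries have fewer degrees of freedom, and the part of this in the shifts was not tested either.

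The replicate block used numbers that are not stated to pair the libraries. It gave 21 higher and 13 lower members at 1w and 3 and 5 at 4w. Counts were 4 and 13 for the interaction, 7 and 19 between the paraquat groups and 5 and 2 between the controls. In the block fit Wnt10b passed at 4w (-1.06, adjusted p = 0.039), while Rspo1 at 4w (-0.59, adjusted p = 0.074) and the Lef1 interaction (0.71, adjusted p = 0.057) did not.

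Values that changed sign were all uncalled. At 4w Lrp6 (-0.01) was 0.0118 with DESeq2, 0.0129 with RLE factors, 0.0666 with library totals, 0.000536 without a filter, 0.0659, 0.0621 and 0.0659 under the limma fits and -0.0320 to 0.0285 without single libraries. Tcf7 (-0.02) was 0.0536 with library totals, 0.0356, 0.0348 and 0.0356 under the limma fits and -0.227 to 0.106 without single libraries. Without single libraries Fzd1 at 4w was -0.0559 to 0.115, Lgr6 -0.589 to 0.291, Dkk2 -0.0228 to 0.281, Sfrp2 -0.00742 to 0.716 and Wnt9b -1.56 to 0.0619, and Notum at 1w was -0.0281 to 0.279. Members under 1 CPM are limited by counts, and scaling by totals shifted the median of all genes by at most 0.08.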
